A study of Homo sapiens with 14 samples.

Results

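Footprints on the messages of the amino acid transporters of the solute carrier (SLC) families were compared between ribosomes held by a tagged ER membrane protein complex (EMC) and the microsomes they came from. The set was every gene symbol of the families SLC1A, SLC3A, SLC6A, SLC7A, SLC36A, SLC38A and SLC43A in the deposited count files, 59 of 19440 symbols. Of these, 33 had 20 or more counts summed over the 14 libraries, and 29 of the 33 passed the filter on low counts, as did 9458 symbols in all. The 29 were SLC1A1 to SLC1A5, SLC3A2, 6 SLC6 members, 7 SLC7 members, SLC36A1, SLC36A4, 7 SLC38 members and SLC43A1.

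The cells were Flp-In T-REx 293, a derivative of the human embryonic kidney line HEK293 that carries a site for doxycycline-inducible transgenes. The EMC6 line was an EMC6 knockout that expressed 3Flag-EMC6, the EMC7 line expressed 3Flag-EMC7 and the EMC10 line expressed 3Flag-EMC10, and the labels of the last 2 lines name no knockout. Expression was switched on in all lines by 72 h in doxycycline (0.5 to 1.0 ng/mL). Each line gave material bound to Flag beads (IP) and the solubilized microsomes it was taken from (input), in 2 pairs for EMC6, 2 pairs for EMC7 and 3 pairs for EMC10. No IP from cells without a tagged bait was among the libraries used here, so binding of ribosomes to the beads themselves was not measured.

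Amino acid transporters are multi-pass membrane proteins made at the endoplasmic reticulum (ER), where the EMC and the Sec61 translocon insert their membrane segments. The light chains of the SLC7 family are multi-pass transporters that reach the cell surface bound by a disulfide to a heavy chain, SLC3A2 (also called CD98 or 4F2hc), a single-pass protein with a large outer domain. Selective ribosome profiling reads the messages whose ribosomes were bound, during translation, to the tagged protein, so the ratio of IP to input measures how much more of a message's footprints were recovered with the bait than were present in the microsomes.

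EMC6 IPs held 515302 to 960279 counts on genes and EMC6 inputs 1692490 to 1835892. EMC7 IPs held 1477225 to 2248591 and EMC7 inputs 2397165 to 3395114, while EMC10 IPs held 1335235 to 1784496 and EMC10 inputs 2907065 to 3371471. Each bait's own message was higher in its IP, with log2 changes of 7.54 ± 0.25, 5.71 ± 0.28 and 7.31 ± 0.18 for EMC6, EMC7 and EMC10, where log2 changes are given throughout with the SE of the fit. The HEK293 genes NEFL, LIN28B and SALL1 had counts in all 14 libraries, LHX1 had none and NEFM had 1 count in all, while the blood, liver and keratinocyte genes PTPRC, HBA1, ALB, KRT5 and KRT14 were at 0. Summed over 8 such genes of other cell types, the level was 0 CPM in every IP and 0 to 1.08 CPM in the inputs. Rows that name no gene held 9.28% to 12.5% of the counts of EMC6 libraries and 2.76% to 5.15% of those of the others. Whether replicates were separate cultures is not stated in the labels, and the spread behind each p-value may therefore be technical.

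Several of these transporters, SLC3A2 and SLC38A2 among them, are known targets of the transcription factor ATF4, which binds amino acid response elements when amino acids run short. Since the members' inputs are compared between lines further on, the promoters were searched on both strands for the core TGATGNAA of that element, where N is any base. RefSeq windows of GRCh38.p14, from 250 bases before to 50 after a start site, were held for 23 of the 29 members, and the others were SLC1A2, SLC6A6, SLC6A15, SLC7A2, SLC7A11 and SLC38A3. The core stood in a window of 6 of the 23 members (26.1%), against 4.46% of all 27305 symbols with a window. Members had more windows per symbol, and by window the core stood in 6 of their 42 (14.3%), against 3.62% of all 35116 windows. The background held every symbol with a window, whether or not it passed the filter on low counts, and an enrichment of the set was not tested. A match is a description and no evidence of binding. Each match is printed 5′ to 3′ on the gene's strand with up to 11 bases on either side, and the capitals mark the core or its reverse complement.
SLC1A3 (chr5:36596357-36596386, plus strand): caggaaatgacTGATGCAAagcagggttaa
SLC1A4 (chr2:64989381-64989410, plus strand): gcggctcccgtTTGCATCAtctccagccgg
SLC1A5 (chr19:46784893-46784922, minus strand): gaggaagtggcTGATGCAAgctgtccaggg
SLC38A1 (chr12:46266502-46266531, minus strand): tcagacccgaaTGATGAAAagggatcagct
SLC3A2 (chr11:62881725-62881748, plus strand): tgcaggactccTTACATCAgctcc
SLC7A1 (chr13:29595663-29595692, minus strand): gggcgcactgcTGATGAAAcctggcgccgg
The cores of SLC1A3, SLC1A4 and SLC1A5 hold the same letters, read on the opposite strand in SLC1A4, and those of SLC38A1 and SLC7A1 are alike as well.

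The first question was whether the members' footprints were recovered with the bait beyond their level in the microsomes. Nearly every measurable member was higher in IP than in input with every bait. In edgeR's quasi-likelihood test with Benjamini-Hochberg adjustment, 28 of 28 members were called higher with EMC6, where 17.6% of all tested genes were, 29 of 29 with EMC7, where 20.4% were, and 27 of 29 with EMC10, where 19.9% were. No member was called lower with EMC6, EMC7 or EMC10, where 9.27%, 9.68% and 13.9% of all tested genes were. The EMC10 exceptions were SLC3A2, at a log2 change of 0.28 ± 0.18 (adjusted p = 0.232), and SLC38A3, a glutamine transporter of system N, at 0.80 ± 0.34 (adjusted p = 0.0728). With the EMC10 libraries fitted alone, both were called higher (0.37, adjusted p = 0.00147, and 0.89, adjusted p = 0.0342). With the EMC6 libraries fitted alone, SLC3A2 lost its EMC6 call (0.87, adjusted p = 0.114). Over the mean of the 3 lines, 28 of 28 members with a value were called higher and 0 lower, against 23.7% and 26.9% of all tested genes. SLC6A11 has no such value, because the EMC6 line had no counts on it. Leaving out any 1 library cost no call over that mean, but calls within a line were less stable. Without EMC6 IP 2, SLC1A2, SLC3A2, SLC6A9, SLC6A17, SLC7A7, SLC7A11, SLC36A1 and SLC38A3 lost the call with EMC6. That fit is unpaired and sets EMC6 IP 1 against both EMC6 inputs. In it SLC7A11 stood at 1.32 and SLC6A9 at 1.95. Within the EMC6 pairs, SLC7A11 changed by 2.46 and 2.36 and SLC6A9 by 3.01 and 3.07. The EMC6 pairs lay further apart in SLC36A1 (0.85 and 1.89) and SLC7A7 (2.40 and 3.15). Without 1 of the EMC7 libraries 24 to 27 members were called with EMC7, and SLC1A2, SLC3A2, SLC6A9, SLC7A7 and SLC7A11 were those that lost it at least once. With library size alone, 22 members were called higher with EMC7 and 24 with EMC10, where 1001 and 760 of all tested genes were. Calls then ended in SLC1A2 (0.19 with EMC7, 0.22 with EMC10), SLC36A1 (0.35 and 0.047) and SLC38A2 (0.40 and 0.29), and with EMC7 also in SLC7A7 (1.56), SLC7A11 (1.20) and SLC38A3 (0.73). Scaling on ER luminal messages ended the EMC7 calls of SLC1A2 (0.47), SLC7A7 (1.81) and SLC36A1 (0.63), and DESeq2 those of SLC1A2 (1.31, adjusted p = 0.0683) and SLC3A2 (0.62, adjusted p = 0.0792).

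IP and input did not overlap within a line, but replicates of the EMC6 line lay far apart in some members. SLC3A2 had 449 and 762 CPM in EMC6 IPs against 231 and 434 CPM in inputs, and SLC7A11 had 193 and 611 CPM in EMC6 IPs. The lowest IP lay above the highest input of its line in 28 members with EMC6 and in all 29 with EMC7 and with EMC10, against 25.1%, 29.1% and 23% of all tested genes. Summed over the 33 symbols with 20 or more counts, the members took 23847 ± 5846 CPM in EMC6 IPs and 4279 ± 1401 CPM in EMC6 inputs (SD, n = 2 each). The sums were 33958 ± 4534 CPM in IPs and 8585 ± 388 CPM in inputs of the EMC7 line (n = 2 each), and 34758 ± 896 CPM in IPs and 8137 ± 501 CPM in inputs of the EMC10 line (n = 3 each). SLC1A5 alone held a large part of them, with means of 6551, 10778 and 11763 CPM in EMC6, EMC7 and EMC10 IPs. Its means in the inputs of these lines were 1076, 2710 and 2663 CPM. Here CPM are counts scaled to a common library size after TMM normalisation, which places the bulk of genes near no change: the median log2 change of all tested genes was -0.19 over the mean of the 3 lines. Relative to that median the members' median was 2.58, and the order of families was SLC7 (3.16, 7 members), SLC43 (3.14, 1 member), SLC6 (2.86, 5 members), SLC38 (2.15, 7 members), SLC1 (2.01, 5 members), SLC36 (1.96, 2 members) and SLC3 (0.76, 1 member). The order differed between lines in part. SLC43 stood above SLC7 with EMC6 (3.57 and 3.44) and EMC7 (2.76 and 2.68) but below it with EMC10 (2.95 and 3.06), SLC1 stood above SLC38 with EMC6 (2.49 and 2.295), and SLC36 stood above SLC1 with EMC7 (1.91 and 1.71). SLC6 stood below SLC7 and SLC43 and above the others, and SLC3 was last, in each line, and differences between families were not tested.

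**Figure D1:**
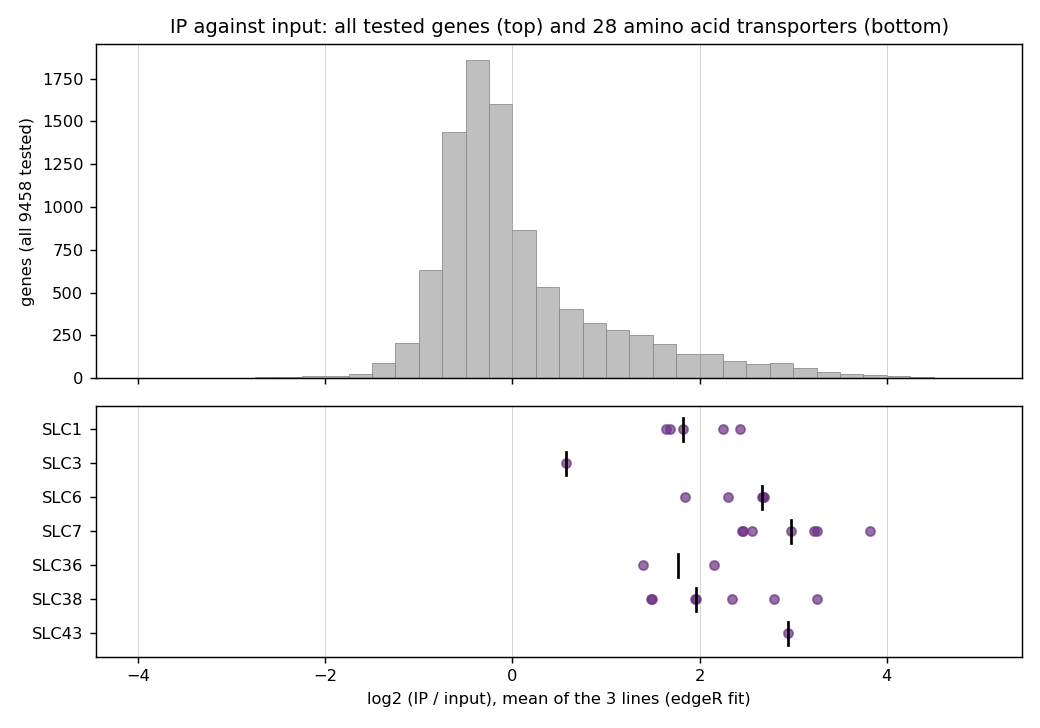
Log2 of IP over input, mean of the 3 lines from the edgeR fit, as a histogram of all 9458 tested genes (top) and as a point for each of 28 amino acid transporters by family with a bar at the family median (bottom). All 28 transporters lie to the right of 0, from 0.57 for SLC3A2 to 3.82 for SLC7A8, while the peak of the histogram lies left of 0.

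The largest changes of the set over the mean of the 3 lines were those of the SLC7 light chains SLC7A8 and SLC7A6, and the smallest was that of their heavy chain. SLC7A8 (chromosome 14, 23125295 to 23183660, GRCh38.p14), an exchanger of neutral amino acids, had 443 and 353 CPM in EMC6 IPs against 19.9 and 22.2 CPM in EMC6 inputs. It had 537 and 446 CPM in EMC7 IPs against 46.5 and 46.6 CPM in EMC7 inputs. In the EMC10 line it had 677, 572 and 634 CPM in IPs against 36.4, 38.7 and 57.6 CPM in inputs. Every IP was far above every input, and the log2 change over the mean of the 3 lines was 3.82 ± 0.12, a 14.1-fold difference (adjusted p = 2.77e-25). SLC7A6 (chromosome 16, 68264526 to 68301819), which exchanges cationic for neutral amino acids, had 423 and 363 CPM in EMC6 IPs against 27.8 and 41.4 CPM in inputs. It had 1058 and 947 CPM in EMC7 IPs against 119 and 132 CPM in inputs, and 1083, 1026 and 1175 CPM in EMC10 IPs against 108, 105 and 125 CPM in inputs. Its groups did not overlap in any line, and its log2 change was 3.26 ± 0.11 (9.57-fold, adjusted p = 7.55e-25).

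SLC7A5 (chromosome 16, 87830023 to 87869507) is the large neutral amino acid transporter that brings leucine into many dividing cells. It had 383 and 765 CPM in EMC6 IPs against 37.6 and 78.4 CPM in inputs. The EMC7 line gave 1737 and 1404 CPM in IPs against 246 and 234 CPM in inputs, and the EMC10 line 1698, 1589 and 1651 CPM in IPs against 199, 224 and 245 CPM in inputs. The EMC6 libraries were low in both fractions, yet the ratio was as large as elsewhere, and the log2 change was 2.97 ± 0.15 (7.85-fold, adjusted p = 4.53e-13). Copies annotated as pseudogenes, SLC7A5P1 and SLC7A5P2, lie on the same chromosome and have no row in the count files, so its counts, like those of SLC6A8 and SLC6A6 with the copies SLC6A10P and SLC6A6P1, depend on how multiply mapping reads were treated, which is not given in the sources used here.

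SLC7A11 (chromosome 4, 138164097 to 138242349), the cystine and glutamate exchanger that feeds glutathione synthesis, differed widely between the EMC6 replicates. It had 193 and 611 CPM in EMC6 IPs against 34.4 and 118 CPM in inputs, so that the higher IP and the higher input belonged to the same replicate. The values were 706 and 477 CPM in EMC7 IPs against 135 and 119 CPM in inputs, and 739.5, 684 and 616 CPM in EMC10 IPs against 102, 106 and 103 CPM in inputs. IP was above input in every pair, and the log2 change was 2.45 ± 0.31 (adjusted p = 1.15e-04). SLC7A7, an exchanger of cationic and neutral amino acids in kidney and intestine, rested on few counts. It had 4 and 9 counts in EMC6 IPs against 2 and 1 in inputs, 4 and 4 in EMC7 IPs against 2 and 2 in inputs, and 2, 3 and 7 in EMC10 IPs against 1, 3 and 1 in inputs. Since the IPs were shallower libraries, these gave a log2 change of 3.22 ± 0.51 (adjusted p = 1.55e-06), whose size is set by 1 to 3 counts per input. Its EMC7 call (2.55 ± 0.93, adjusted p = 0.0354) was lost with input and IP paired as a replicate block (2.55, adjusted p = 0.0505), and its EMC10 call without EMC10 IP 3, which held the 7 counts (2.55, adjusted p = 0.0612).

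SLC3A2 (chromosome 11, 62856109 to 62888860), the heavy chain, had 449 and 762 CPM in EMC6 IPs against 231 and 434 CPM in inputs. It had 1135 and 986 CPM in EMC7 IPs against 726 and 714 CPM in inputs. In the EMC10 line it had 858, 764 and 920 CPM in IPs against 688, 684 and 718 CPM in inputs. Its groups did not overlap within a line, but the distance was small: the log2 change was 0.88 ± 0.22 with EMC6 (adjusted p = 0.0036), 0.56 ± 0.22 with EMC7 (adjusted p = 0.0498) and 0.57 ± 0.12 over the mean of the 3 lines (1.49-fold, adjusted p = 1.87e-04). This call depends on the scaling, since with library size alone SLC3A2 was lower in IP, at -0.38 over that mean (adjusted p = 0.00178), and at -0.46 and -0.84 with EMC7 and EMC10. With EMC6 it stood at 0.17 there (adjusted p = 0.478). In that setting the median of all tested genes over the mean was itself -1.13, and 7282 of 9458 genes were called lower, so SLC3A2 stayed above the bulk of genes. Scaling on ER luminal messages ended the call over that mean (0.086, adjusted p = 0.487). The EMC6 call was lost without EMC6 input 1 (0.50, adjusted p = 0.0798) or IP 2 (0.42, adjusted p = 0.290). The EMC7 call was lost without any 1 of the EMC7 or EMC10 libraries, with adjusted p from 0.0612 to 0.298, and the EMC10 change was called with the replicate block (0.28, adjusted p = 8.38e-05). SLC3A1, the heavy chain of the renal cystine transporter, was at 0 counts in all 14 libraries.

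The light chains and the heavy chain were then set against each other within each pair of IP and input. This cancels the scaling of a library, except through the prior count of 2 that is added before the log. The log2 change of the light chain exceeded that of SLC3A2 in 7 of 7 pairs for each of the 5 light chains. The mean excess was 3.27 ± 0.42 for SLC7A8, or 9.62-fold, with pairs from 2.77 to 3.87 (SD, n = 7 pairs). It was 2.73 ± 0.33 for SLC7A6 (6.61-fold) and 2.42 ± 0.24 for SLC7A5 (5.35-fold). SLC7A11 had the closest pair to its heavy chain among the well-counted light chains, with a mean excess of 1.94 ± 0.47 (3.84-fold) and pairs from 1.50 to 2.53. SLC7A7 stood at 1.52 ± 0.61, but the prior count shrinks values on so few counts, so its place below the others is not established. Its mean count ratio to SLC3A2 was 0.0148 in EMC6 IPs and 0.00196 in EMC6 inputs. The ratios were 0.0034 and 0.00077 in the EMC7 line and 0.0045 and 0.00056 in the EMC10 line. A two-sided exact sign-flip test gave p = 0.0156 for each light chain, the smallest value that 7 pairs allow, and the same after Benjamini-Hochberg adjustment over the 5 contrasts. The pairs are replicates of 3 lines and not 7 independent lines, and all 5 contrasts share the same SLC3A2 values. SLC3A2 also had the smallest change of the set, so the test does not set light chains apart from other members. SLC38A10, which is no light chain, changed by 2.95 to 3.73 in these pairs, against 0.16 to 0.95 for SLC3A2.

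**Figure D2:**
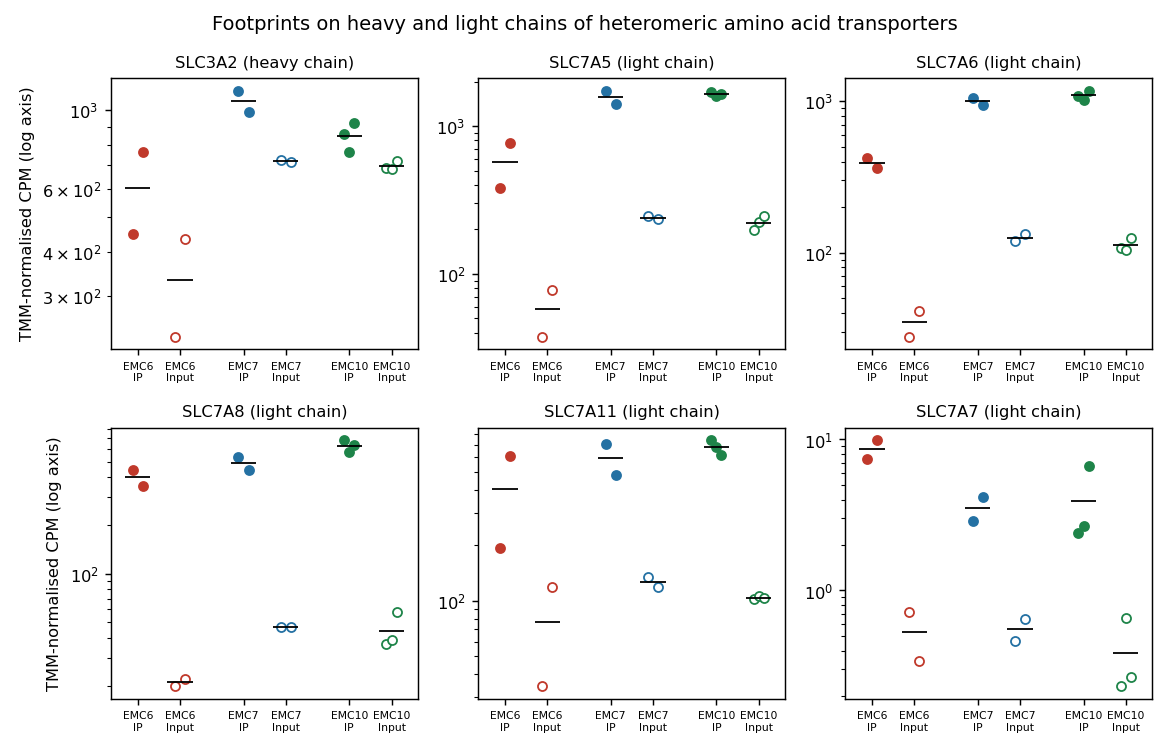
TMM-normalised CPM on a log axis in each library for the heavy chain SLC3A2 and 5 SLC7 light chains, with IP as filled and input as open points and a bar at each group mean. IP and input of SLC3A2 lie close together in the EMC7 and EMC10 lines, whereas IP of each light chain lies well above input in all 3 lines, and both EMC6 fractions lie low for SLC7A5 and SLC7A6.

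The other SLC7 members and SLC43A1 work without a heavy chain. SLC7A1, the main cationic amino acid transporter of dividing cells, had 2339 and 3862 CPM in EMC6 IPs against 302 and 531 CPM in inputs, and its log2 change over the mean of the 3 lines was 2.56 ± 0.12. SLC7A2, a cationic amino acid transporter with splice forms of different affinity, stood at 2.47 ± 0.10. SLC43A1 (chromosome 11, 57484534 to 57515702), a sodium-independent facilitator of large neutral amino acids, had 265 and 577 CPM in EMC6 IPs against 24.6 and 53.7 CPM in inputs. It had 214 and 164 CPM in EMC7 IPs against 31.9 and 29.6 CPM in inputs, and 217, 221 and 198 CPM in EMC10 IPs against 27.4, 32.8 and 32.4 CPM in inputs. All groups stood apart, with a log2 change of 2.95 ± 0.17 (7.73-fold, adjusted p = 9.78e-12).

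Among the sodium- and chloride-coupled SLC6 carriers, IP exceeded input by similar amounts in SLC6A6 (2.69 ± 0.10), SLC6A8 (2.67 ± 0.12) and SLC6A9 (2.67 ± 0.32), which carry taurine, creatine and glycine. SLC6A6 had 918 and 943 CPM in EMC6 IPs against 106 and 127 CPM in inputs, 1323 and 1050 CPM in EMC7 IPs against 232 and 196 CPM in inputs, and 1177, 1223 and 1137 CPM in EMC10 IPs against 169, 211 and 205 CPM in inputs. SLC6A9 had 140.2 and 468 CPM in EMC6 IPs against 16.6 and 54.7 CPM in inputs, again with both high values in replicate 2. SLC6A17, a vesicular neutral amino acid carrier of neurons in rodents, stood at 2.31 ± 0.26. The smallest change in the family was that of SLC6A15, a carrier of branched-chain amino acids and proline, at 1.84 ± 0.09 (3.58-fold, adjusted p = 2.47e-19). It had 1124 and 1370.3 CPM in EMC6 IPs against 248 and 316 CPM in inputs, and 1379 and 1270.2 CPM in EMC7 IPs against 413 and 425 CPM in inputs. In the EMC10 line it had 1198, 1314 and 1357 CPM in IPs against 351, 413 and 415 CPM in inputs, so its IPs were tightly grouped at roughly the same level in every line.

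In the SLC1 family the point estimates of the exchangers of neutral amino acids were above those of the glutamate transporters. SLC1A4 (chromosome 2, 64988479 to 65023865), which exchanges alanine, serine and cysteine, had 337 and 738 CPM in EMC6 IPs against 48.8 and 108 CPM in inputs. It had 457 and 372 CPM in EMC7 IPs against 90.7 and 78.5 CPM in inputs, and 429, 407 and 378 CPM in EMC10 IPs against 82.1, 93.7 and 88.9 CPM in inputs. The groups were apart in each line, and the log2 change was 2.43 ± 0.18 (adjusted p = 1.82e-09). SLC1A5, the glutamine exchanger of many cultured cells, stood at 2.25 ± 0.09, and the glutamate transporters SLC1A1, SLC1A3 and SLC1A2 at 1.82 ± 0.11, 1.69 ± 0.09 and 1.64 ± 0.26. Both exchangers stood above all 3 glutamate transporters in the point estimates of each line, while the order within the glutamate transporters differed, with SLC1A2 the highest of them with EMC6 (2.37). Differences between these genes were not tested. SLC1A2 rested on 6 to 23 counts per IP and 5 to 41 per input, with CPM of 11.2 and 23.0 in EMC6 IPs against 1.81 and 5.13 in inputs, 16.5 and 13.6 in EMC7 IPs against 9.54 and 2.90 in inputs, and 12.0, 15.2 and 18.2 in EMC10 IPs against 5.56, 5.72 and 6.96 in inputs. Its EMC7 call (1.20 ± 0.43, adjusted p = 0.0287) was lost without EMC7 input 2, the lowest EMC7 library (0.67, adjusted p = 0.283), and without either EMC7 IP.

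The SLC38 family had the widest range of log2 changes. SLC38A10 (chromosome 17, 81244811 to 81295307), a member whose substrates are less well known, had 1494 and 2059 CPM in EMC6 IPs against 111 and 169 CPM in inputs. It had 2074 and 1864 CPM in EMC7 IPs against 255 and 240.3 CPM in inputs, and 2094, 1915 and 2030.2 CPM in EMC10 IPs against 227, 238 and 241 CPM in inputs. Its log2 change of 3.25 ± 0.10 (9.52-fold, adjusted p = 4.99e-25) was close to those of the SLC7 light chains. SLC38A2, the system A transporter that is induced when amino acids run short, changed much less. It had 1552 and 2599 CPM in EMC6 IPs against 480.3 and 884 CPM in inputs, 3286 and 2434 CPM in EMC7 IPs against 1061 and 1074 CPM in inputs, and 2509, 2980 and 2609 CPM in EMC10 IPs against 965, 1093 and 993 CPM in inputs. No IP fell to the level of an input of its line, and the log2 change was 1.48 ± 0.13 (2.79-fold, adjusted p = 1.12e-09).

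Between these ends lay SLC38A7, a lysosomal glutamine exporter, at 2.80 ± 0.13 and SLC38A6 at 2.35 ± 0.15. SLC38A1, another system A transporter, and SLC38A9, the arginine sensor of the lysosome, both stood at 1.96, with standard errors of 0.16 and 0.10. SLC38A3 stood at 1.49 ± 0.22 and differed between lines in its levels: 15.0 and 26.3 CPM in EMC6 IPs against 5.06 and 6.16 CPM in inputs, 12.9 and 23.0 CPM in EMC7 IPs against 5.35 and 4.83 CPM in inputs, but 12.0, 11.6 and 7.64 CPM in EMC10 IPs against 5.796, 6.38 and 5.63 CPM in inputs. The difference of its change between the baits did not pass the test. The proton-coupled SLC36 carriers gave 2.15 ± 0.11 for SLC36A4 and 1.39 ± 0.18 for SLC36A1, which exports amino acids from lysosomes. SLC36A4 had 84.1 and 77.8 CPM in EMC6 IPs against 15.2 and 18.8 CPM in inputs, 156 and 134 CPM in EMC7 IPs against 28.4 and 36.03 CPM in inputs, and 136, 122 and 123 CPM in EMC10 IPs against 30.8, 32.3 and 28.9 CPM in inputs. SLC36A1 had 13.1 and 25.2 CPM in EMC6 IPs against 6.87 and 6.16 CPM in inputs, 30.9 and 36.6 CPM in EMC7 IPs against 11.9 and 14.2 CPM in inputs, and 21.7, 29.6 and 32.5 CPM in EMC10 IPs against 10.2, 12.8 and 15.0 CPM in inputs. All of these IPs were above the inputs of their line, SLC36A1 by the smaller margin.

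**Figure D3:**
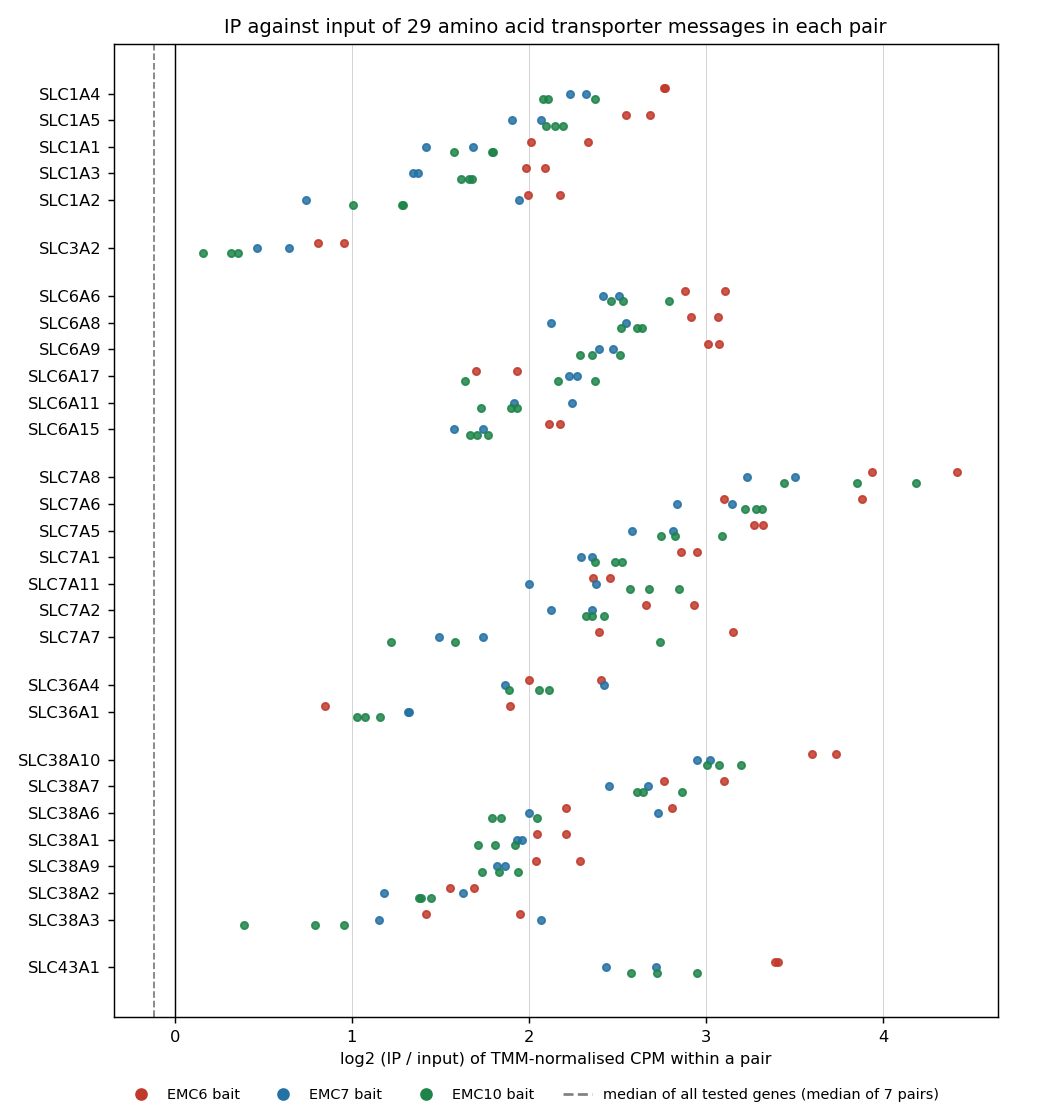
Log2 of IP over input within each pair of libraries for 29 amino acid transporter messages, grouped by family, with pairs of the EMC6, EMC7 and EMC10 lines in red, blue and green and the dashed line at the median of all tested genes. Every pair lies right of 0, SLC3A2 is nearest to 0, SLC7A8 reaches furthest right, and SLC6A11 has no EMC6 pairs because it had 0 counts there.

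The order of members was much the same with each bait. Across the 28 members with a value in every line, the log2 changes with EMC6 correlated with those with EMC7 at r = 0.887 and with those with EMC10 at 0.927, and the EMC7 and EMC10 changes correlated at 0.929. These describe genes of the same libraries and are no replicates. The change had little relation to the level in input across members (r = -0.197 with log2 input CPM).

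Among other messages of amino acid metabolism, the carriers of other families outside mitochondria were likewise higher in IP: 5 of 5 were called over the mean of the 3 lines, among them SLC16A10, a carrier of aromatic amino acids, at 2.76 ± 0.10, and CTNS, the lysosomal cystine exporter, at 1.24 ± 0.26. Of 9 mitochondrial amino acid carriers 1 was called higher, SLC25A44, which carries branched-chain amino acids (1.80 ± 0.23), and 1 lower, the aspartate and glutamate carrier SLC25A13 (-0.56 ± 0.17). Of 18 cytosolic aminoacyl-tRNA synthetases 0 were called higher and 13 lower, with a median of -0.21 relative to all genes. Against 23.7% of all tested genes called higher and 26.9% lower, the 15 genes of the amino acid response and synthesis gave 0 higher and 6 lower (40.0%), and the 26 genes of amino acid sensing at the lysosome 1 higher and 4 lower (15.4%), below that share. The 1 was FNIP2, a partner of folliculin (0.86 ± 0.36, adjusted p = 0.0438).

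SLC symbols outside the families of the set were also compared, whatever their substrates. They include SLC16A10, SLC15A4 and SLC66A1, which are also among the amino acid carriers of other families above. Of 147 tested SLC symbols of other families outside SLC25, 146 were called higher, and their median relative to all genes was 2.63, beside 2.58 for the amino acid transporters. Of 26 mitochondrial SLC25 carriers 5 were called higher and 1 lower, with a median of 0.27. Messages of soluble ER luminal proteins, which are also translated at the ER, were called higher in 25 of 40, with a median of 0.59 relative to all genes, which is near the 0.76 of SLC3A2.

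Differences between baits were tested as the difference of the log2 changes of 2 lines. No member was called for EMC6 minus EMC7, EMC6 minus EMC10 or EMC7 minus EMC10 in edgeR, where 0.518%, 0.074% and 0.159% of all tested genes were called. DESeq2 called 0 members as well. Of all tested genes it called 75 higher and 98 lower for EMC6 minus EMC7. Its counts were 17 and 2 for EMC6 minus EMC10 and 60 and 3 for EMC7 minus EMC10. At an unadjusted p under 0.05, edgeR counted 9, 5 and 0 members and DESeq2 9, 4 and 0. At the same threshold edgeR counted 847, 590 and 621 of all 9458 tested genes. Of the 147 other SLC symbols outside SLC25 it counted 53, 34 and 10. The point estimates leaned one way: EMC6 minus EMC7 was above 0 in 27 of 28 members with a median of 0.51, and EMC6 minus EMC10 in 26 of 28 with a median of 0.43, beside all-gene medians of 0.01 and 0.06. Other SLC symbols outside SLC25 leaned alike, with 123 and 125 of 147 above 0 and medians of 0.52 and 0.40. EMC7 minus EMC10 was above 0 in 11 of 28 members, with a median of -0.12. The comparisons share the EMC6 libraries, whose inputs also had the lowest member levels.

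The calls turned on the design of the fit. With input and IP paired as a replicate block, 14 of 28 members were called higher for EMC6 minus EMC7 and 11 for EMC6 minus EMC10, where 2.82% and 1.88% of all tested genes were. The lowest adjusted p for EMC6 minus EMC7 were those of SLC1A5, SLC38A10 and SLC1A3. Their log2 differences were 0.63 (adjusted p = 5.85e-08), 0.68 (adjusted p = 6.65e-07) and 0.68 (adjusted p = 7.17e-07). For EMC6 minus EMC10 they were those of SLC3A2, at a log2 difference of 0.59, and SLC38A10, at 0.57 (adjusted p = 3.46e-05 each). For EMC7 minus EMC10, SLC7A11 was called lower, at -0.49 (adjusted p = 0.00252), where 0.698% of all genes were. That fit has 4 residual degrees of freedom against 8, and it took the spread almost wholly from the trend over genes, with a median of 2649 prior degrees of freedom against 27.2, so its p-values rest little on the replicates of a single gene. Leaving out EMC6 input 2 in the unpaired fit also gave calls for EMC6 minus EMC7 and EMC6 minus EMC10. Without EMC6 IP 1 there were calls for EMC6 minus EMC7. Such fits hold a single library in that EMC6 group, and the share of all genes called in them is not given here.

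The inputs themselves were compared, EMC6 against the mean of the other lines, since every IP ratio rests on them. Most members had lower footprint levels in the microsomes of the EMC6 line: 21 of 29 were called lower, where 21.8% of all tested genes were, and 0 higher, where 15.3% were. Both EMC6 inputs lay below all 5 other inputs in 21 members, against 25% of all tested genes. The median log2 difference of the members was -0.84 and that of all tested genes 0.07. A lower level of a message, fewer ribosomes on it and less of it in the microsomes cannot be told apart here, and neither can the knockout, the bait, the line and the library preparation.

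SLC6A11, a GABA transporter, was at 0 counts in both EMC6 inputs and both EMC6 IPs. It had 4.89 and 4.18 CPM in EMC7 inputs and 4.87, 6.16 and 5.63 CPM in EMC10 inputs, so it was at least 9.56-fold lower in EMC6 inputs, with a floor of 3 counts over both of them (adjusted p = 8.10e-07). SLC7A5 differed by -1.99 ± 0.25 on the log2 scale, or 3.97-fold lower (adjusted p = 3.32e-06), and SLC7A6 stood at -1.77 ± 0.18, or 3.42-fold lower (adjusted p = 1.21e-09). SLC38A6 had 4.34 and 5.47 CPM in EMC6 inputs against 13.0 and 18.7 CPM in EMC7 inputs and 15.5, 16.5 and 15.8 CPM in EMC10 inputs (-1.67 ± 0.27, adjusted p = 5.44e-06). SLC38A7 had 6.87 and 9.58 CPM in EMC6 inputs against 23.0 and 25.1 CPM in EMC7 inputs and 23.0, 16.5 and 21.2 CPM in EMC10 inputs (-1.41 ± 0.23, adjusted p = 6.37e-06). In each of these the EMC6 values lay clear of all others. SLC1A5, chosen after its values were seen, had 898 and 1254 CPM in EMC6 inputs against 2577 to 2842 CPM in EMC7 and 2479 to 2825 CPM in EMC10 inputs (-1.32 ± 0.15). SLC3A2 stood at -1.09 ± 0.19 (adjusted p = 4.77e-05).

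The 8 members that were not called were SLC43A1 (0.35 ± 0.27), SLC7A7 (0.17), SLC6A17 (0.07), SLC38A3 (0.03), SLC1A4 (-0.14 ± 0.27), SLC6A9 (-0.20 ± 0.52), SLC7A11 (-0.58 ± 0.49) and SLC1A2 (-0.84 ± 0.41). The EMC6 inputs differed from each other in several of these. EMC6 input 2 exceeded input 1 in 26 of 28 members, where 54.1% of all tested genes did, and in 14 of 15 genes of the amino acid response and synthesis. The values for input 2 and input 1 were 118 and 34.4 CPM in SLC7A11, 54.7 and 16.6 CPM in SLC6A9, 108 and 48.8 CPM in SLC1A4, and 53.7 and 24.6 CPM in SLC43A1. ASNS, which makes asparagine and is an ATF4 target, had 402 and 155 CPM in the same 2 libraries, against 97.5 to 150 CPM in the other inputs.

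Other gene groups differed between the inputs at the same time. All 40 ER luminal messages were called lower in EMC6 inputs, with a median of -1.08, and of 147 other SLC symbols outside SLC25 93 were called lower and 6 higher, with a median of -0.89. The amino acid response genes gave 10 higher and 1 lower of 15, with a median of 0.62. Their summed level was 1451 and 2060 CPM in EMC6 inputs against 1493 to 1664 CPM in the others, that of ER luminal messages 25588 and 27090.2 CPM against 52259 to 61510, and that of the members 3289 and 5270 CPM against 7588 to 8860. The part of these groups in the members' difference was not tested. When libraries were scaled on the ER luminal list, 3 members were called lower and 8 higher, with a median of 0.29, in place of 21 and 0, and 18 of 28 members with counts in EMC6 inputs turned from below to above 0, so the direction holds against the bulk of genes and not against ER luminal messages. With that scaling 7322 of all 9458 tested genes were called higher and 159 lower, with a median of 1.20. Relative to it the members' median was -0.91, beside -0.91 with TMM.

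**Figure D4:**
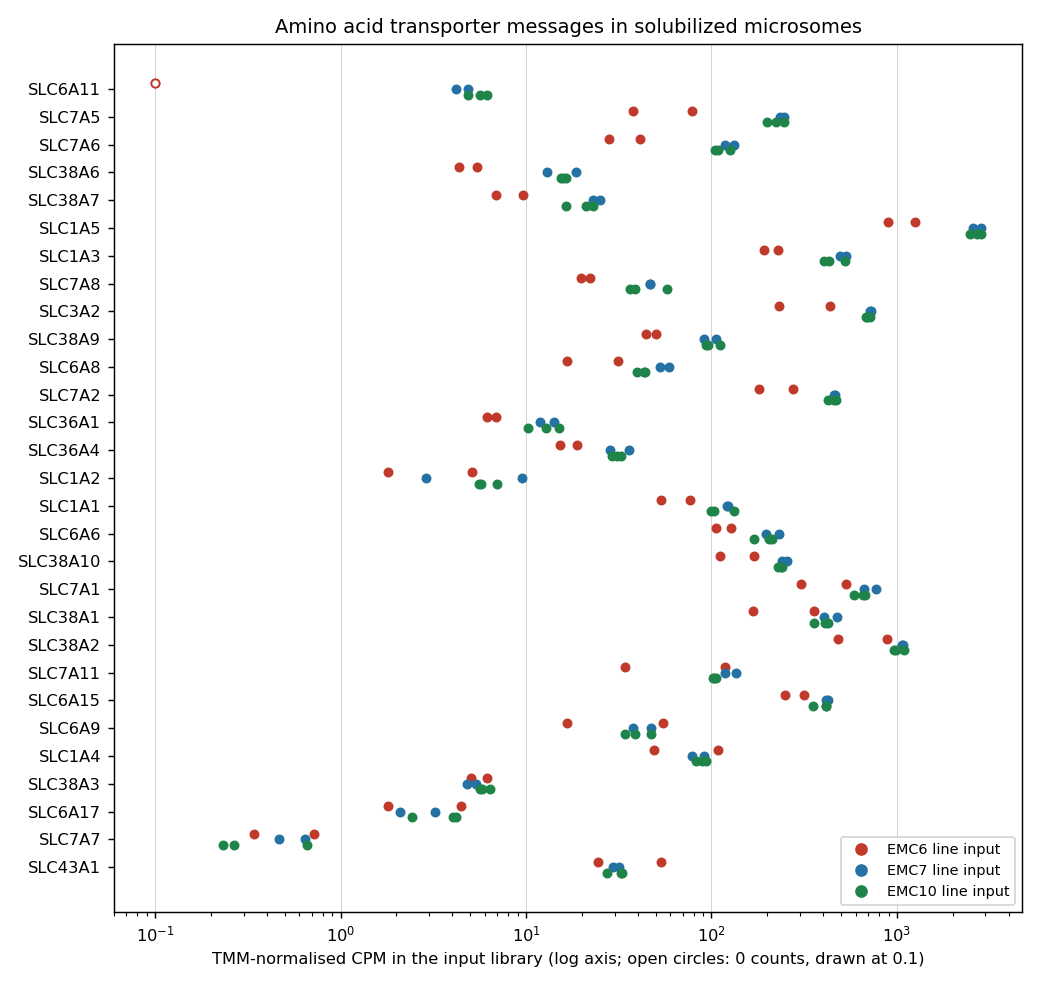
TMM-normalised CPM on a log axis in each input library for 29 amino acid transporter messages, ordered by the EMC6 difference, with EMC6 in red, EMC7 in blue and EMC10 in green, and open circles at 0.1 for 0 counts. The EMC6 points lie left of the others from SLC6A11 down to SLC6A15 except in SLC1A2 and SLC7A11, and mix with them in the lowest rows.

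The rest of the set was too thinly counted to test. SLC1A6, a glutamate transporter of cerebellar neurons, had 3 and 5 counts in EMC6 IPs and 4 and 8 in EMC6 inputs, and 3 counts in all over the other 10 libraries. SLC7A3, a cationic amino acid transporter, ran the other way, with 0 counts in all 4 EMC6 libraries, 3 to 12 in the other IPs and 3 to 8 in the other inputs. SLC6A12, a betaine and GABA carrier, had 61 counts over the 14 libraries and SLC38A11 had 20. A further 10 symbols had 1 to 19 counts, the highest being SLC38A4 with 15. The 16 symbols at 0 in all 14 libraries were SLC3A1, SLC6A2, SLC6A3, SLC6A5, SLC6A7, SLC6A14, SLC6A18, SLC6A19, SLC6A20, SLC7A4, SLC7A10, SLC7A13, SLC7A14, SLC36A2, SLC36A3 and SLC43A2, and a count of 0 does not show that a message is absent.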

How the data were processed

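Ribosome-protected fragments were measured in 14 libraries of input and IP. The authors deposited, for each library, a whole-number count of footprints per gene symbol without normalization. Reads were processed with Cutadapt 4.1, Bowtie2 2.2.6 and TopHat2 2.1.0 against hg38, per the submitters' processing notes. Not given in the sources used here were the annotation, the strand setting and any removal of duplicates, so floors cover counting error only.

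The 5 rows naming no gene were left out. A single edgeR fit (version 4.0.16, with limma 3.58.1 under R 4.3.3) took all libraries, using group means, TMM, filterByExpr and a robust quasi-likelihood test, adjusted over 9458 genes at 0.05. Pairs used log2 CPM with a prior count of 2. DESeq2 1.42.0, other scalings, filters and designs, a test against a fold of 1.5 and fits without each library were alternatives. Members and lists were chosen with earlier results of these data known. Values in every sample are given for the largest and smallest change per family with at least 10 CPM, the heavy and light chains, and up to 5 calls each way among inputs. Other tested members are named with their mean change.

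Libraries with the same number carry 1 batch label, and per the labels' protocols the IP was taken from the input by bead binding, so same-numbered libraries of a line were treated as pairs in the blocked fit and the sign-flip test. Their deviations from group means correlated weakly, at 0.272 (EMC6), 0.0744 (EMC7) and 0.0411 to 0.0951 (EMC10), so the pairing rests on the labels. EMC10 inputs and IPs with different numbers correlated at -0.0729 to -0.00629, below every pair with the same number. Deviations sum to 0 within a group, which pulls the values of unmatched libraries down, and the pairing was not tested. Replicates correlated at 0.911 to 0.987, and the chi-square per degree of freedom between them, 2.09 to 8.62, was above sampling noise. On simulated counts with 200 genes changed among 9000, the fit recovered 97.9% of genes planted at 2-fold over the mean of the 3 lines and 60.4% in the EMC6 line. At 1.5-fold it recovered 66.1% and 13.6%. All planted genes had a mean input of at least 10 CPM, so members with lower inputs are not covered. The simulation also lacked the large share of changed genes and of bait counts in the real IPs. Positions are those of RefSeq, GRCh38.p14.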

Additional observations from a re-analysis of the deposited data

How the results depend on the processing

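Over the mean of the 3 lines, 27 to 31 members were called higher under every alternative, and of 2616 values of single members and alternatives for IP against input, 2550 kept their direction and their side of the threshold, 57 lost the call, 3 gained it and 6 reversed. The median of all genes was -0.19 with TMM, -0.10 with DESeq2, -0.67 with scaling on ER luminal messages and -1.13 with library size alone, where all tested genes split into 1135 higher and 7282 lower against 2243 and 2547 with TMM, while the members' median relative to it stayed at 2.57 to 2.58. The reversals were SLC3A2 with library size alone (-0.46 with EMC7, -0.84 with EMC10, -0.38 over the mean) and with ER luminal scaling (-0.18 with EMC7, -0.10 with EMC10), and SLC38A3 with library size alone (-0.32 with EMC10). Members called between baits were 8 with library size alone, 5 with ER luminal scaling and 14 with input and IP paired as a replicate block for EMC6 minus EMC7, with 0 to 12 when 1 library was left out. For EMC6 minus EMC10 the members called were 10 with library size alone and 11 with the replicate block. Library size alone called 493 of all tested genes higher and 1 lower there, against 6 and 1 with TMM. Some fits with 1 library left out gave calls for both differences. For EMC7 minus EMC10 the block gave 1. Other calls that the block changed are given beside their members. Among inputs, 3 members were called lower with ER luminal scaling and 11 in the test against a fold of 1.5, and 17 to 24 with 1 library left out. With ER luminal scaling 159 of all 9458 tested genes were called lower among inputs and 7322 higher. The share of all genes called in the test against a fold of 1.5 is not given here. Scaling on ER luminal messages turned the sign of the input difference in 18 of 28 members: SLC1A1 (0.29), SLC1A2 (0.28), SLC1A4 (0.98), SLC3A2 (0.032), SLC6A6 (0.32), SLC6A8 (0.12), SLC6A9 (0.91), SLC6A15 (0.61), SLC7A1 (0.43), SLC7A2 (0.13), SLC7A8 (0.035), SLC7A11 (0.53), SLC36A1 (0.16), SLC36A4 (0.25), SLC38A1 (0.45), SLC38A2 (0.51), SLC38A9 (0.068) and SLC38A10 (0.34). Library size alone turned it in SLC1A4 (0.16) and SLC6A9 (0.097), and DESeq2 in SLC6A17 (-0.0086) and SLC38A3 (-0.043). With 1 library left out, input differences that turned ran from -0.88 to 0.30 in SLC1A4, -1.36 to 0.39 in SLC6A9, -1.79 to 0.028 in SLC7A11, -0.77 to 0.54 in SLC6A17, -0.18 to 0.14 in SLC38A3 and -0.38 to 0.78 in SLC43A1, each lowest without EMC6 input 2 and highest without EMC6 input 1, and from -0.40 without input 1 to 0.54 without input 2 in SLC7A7. Leaving out 1 library moved family medians relative to all genes to 2.47 to 2.92 in SLC6 and 2.102 to 2.36 in SLC38. Without EMC6 IP 2, which leaves the shallowest IP alone, 20 members were called with EMC6. The causes of these changes were not tested. The tested members with the fewest counts over the 14 libraries were SLC7A7 (45), SLC6A17 (188), SLC6A11 (222), SLC38A3 (248) and SLC1A2 (255).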
